A study of Mus musculus with 6 samples.

Results

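Acini make and secrete the digestive enzymes of the pancreas, and in culture they lose secretory features and take on duct-like ones, a conversion called acinar-to-ductal metaplasia (ADM). DKK3 is a secreted glycoprotein of the Dickkopf family, whose other members are known as Wnt antagonists that act on the co-receptors LRP5 and LRP6. The comparison described here is that of Dkk3-null acini given recombinant DKK3 protein (DD + rDKK3, 2 libraries) with wild-type acini that received none (WT, 2 libraries). It asked which protein-coding genes and functions still differed from wild type once the missing protein had been supplied. These are 4 of the 6 libraries of the series, and the other 2 came from untreated Dkk3-null acini (DD). Treated libraries below means the DD + rDKK3 libraries.

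All cultures were primary mouse pancreatic acinar cells, harvested on day 3 of the ADM assay and grown in the same serum-containing medium with a trypsin inhibitor and dexamethasone. The labels give ages of 10 and 11 weeks for WT, 12 and 13 weeks for DD, and 14 and 15 weeks for DD + rDKK3, so age and group cannot be told apart. WT mice carried intact Dkk3. The DD and DD + rDKK3 mice carried a ubiquitous knockout allele, present in every cell of the body rather than in acini alone. The paper reports that this allele removes the secreted full-length protein and leaves expression of an intracellular isoform, Dkk3b, unchanged. WT acini treated with the protein were not analysed here, so genotype and treatment differ together in the comparison. The labels name the libraries as separate samples without saying which animals they came from, and the p-values measure the spread between these libraries.

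Library totals ranged from 12018473 counts (WT 1) to 19750401 (DD 1), and the 2 WT libraries were the shallowest. The 14 acinar markers summed to 93700 to 158400 CPM (counts scaled to a common library total) in the 6 libraries, and the markers of lymphocytes, neutrophils, Schwann cells and erythroid cells summed to at most 1.41 CPM in any library. Other cell types were present in the cultures. Over the 6 libraries mesothelial markers summed to 528 to 919 CPM and adipocyte markers to 255 to 429. Islet markers summed to 185.5 to 328 CPM and endothelial markers to 194 to 317. Fibroblast and macrophage markers are given below. WT 2 is labelled female and the others male. It held 16 counts of Xist, the RNA that silences an X chromosome in female cells, and its Y-linked genes summed to 141 CPM, inside the 119 to 147 CPM of the other 5 libraries. That library goes against its label, and the calls and the list medians are given below with and without it. Dkk3 itself had 10 and 1 counts in WT and 5 and 5 in DD + rDKK3, too few for the expression filter. Gene counts do not show which exons were read, so these numbers do not check the knockout.

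Of 56953 genes, 14738 passed the filter on low counts and 12698 of them were protein coding. Calls were made where the p of edgeR's quasi-likelihood test, adjusted over all 14738 genes by Benjamini-Hochberg, was under 0.05. DD + rDKK3 differed from WT in 7 genes (0.0475% of those tested), of which 5 were pseudogenes and 2 were protein coding (0.0158% of 12698). One coding gene was lower in DD + rDKK3, Selenbp2, and one was higher, Acsm3 (0.00788% in each direction). At an unadjusted p under 0.05 there were 1023 coding genes higher (8.06%) and 1076 lower (8.47%), 2099 in all where 635 would be expected by chance. Genes share the same 4 libraries and do not vary independently, so a count arising by chance could lie far from 635. Both treated libraries were above both WT libraries in 3662 coding genes (28.8%) and below both in 3429 (27%). With totals as the only scaling, the coding median of log2 fold change went from 0.027 to 0.19 and the split at an unadjusted p under 0.05 to 1561 higher and 298 lower, so directions below are relative to the TMM scaling. The plot of fold change against expression shows both called genes at moderate levels, away from the bulk.

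**Figure D1:**
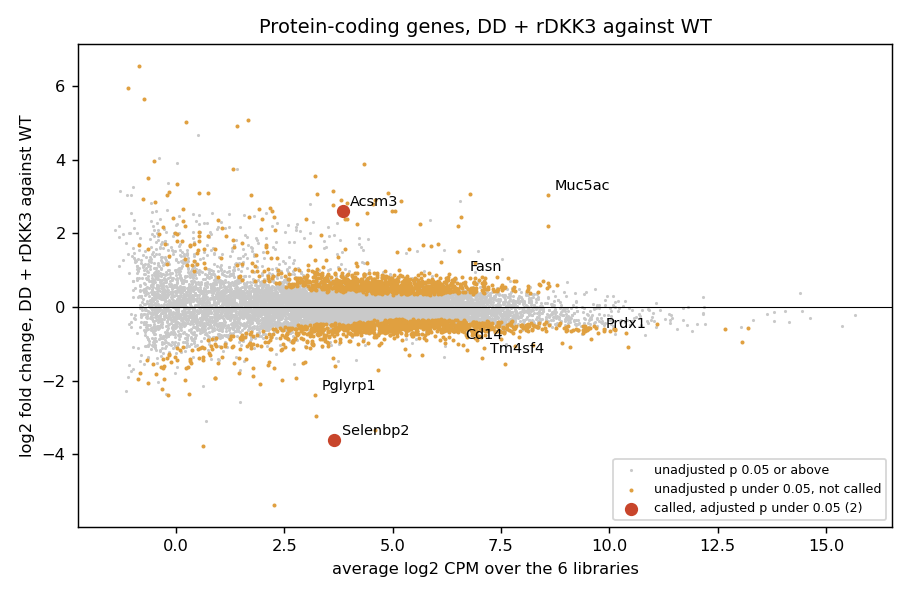
Each point is 1 of the 12698 protein-coding genes tested. The horizontal axis is the average log2 CPM over the 6 libraries and the vertical axis the log2 fold change of DD + rDKK3 against WT. Selenbp2 and Acsm3 are the 2 called genes, at log2 fold changes of -3.62 and 2.60.

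Selenbp2 encodes selenium-binding protein 2, a cytosolic protein first known for binding acetaminophen in liver. It lies on the plus strand of chromosome 3 (94600863 to 94611720, GRCm39). Its level was 30.9 and 35.5 CPM in WT, 1.89 and 3.00 in untreated null cultures and 2.17 and 3.23 after treatment. Both WT libraries stood above all 4 null libraries. The mean was 33.2 ± 3.27 CPM in WT and 2.696 ± 0.751 in DD + rDKK3 (SD, n = 2 each), a 12.3-fold lower level after treatment than in WT. The log2 fold change was -3.62 (SE 0.293, edgeR adjusted p 0.0126). Set beside it, the change of DD against WT was -3.77 and that of DD + rDKK3 against DD was 0.15.

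Selenbp2 has a close paralog on the same chromosome, Selenbp1, and reads can be shared between them. The canonical transcripts of the pair in GENCODE M39 were 98.5% identical over 1719 aligned bases. Of 1670 runs of 50 bases in the Selenbp2 transcript, the length of 1 sequenced read, 871 (52.2%) also occur in a Selenbp1 transcript. The stretch of coding sequence with the most differences is shown because reads over it can be placed on 1 of the 2 genes. It lies in exon 5 of both genes on the plus strand, at chr3:94605379-94605438 for Selenbp2 and chr3:94845295-94845354 for Selenbp1 in GRCm39, and capitals mark the 4 bases of 60 that differ.
Selenbp2: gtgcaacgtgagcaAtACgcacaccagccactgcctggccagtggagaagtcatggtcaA
Selenbp1: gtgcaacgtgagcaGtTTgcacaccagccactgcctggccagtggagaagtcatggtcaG

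Selenbp1 was far more abundant than Selenbp2. It stood at 918 and 1024 CPM in WT, 1728 and 1180 in untreated null cultures and 1148 and 786 after treatment. The treated and wild-type libraries overlapped, with a log2 fold change of -0.0054 (SE 0.262, edgeR adjusted p 0.993). How many reads were placed on the wrong member of the pair was not tested.

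Acsm3 encodes a mitochondrial medium-chain acyl-CoA synthetase, an enzyme that activates fatty acids. It lies on the plus strand of chromosome 7 (119360146 to 119386736, GRCm39), 7.6 Mb from Dkk3 on the same chromosome. It stood at 2.65 and 3.65 CPM in WT, 21.7 and 18.1 in untreated null cultures and 21.8 and 17.0 after treatment. All 4 null libraries were above both WT libraries, and treated and untreated null libraries covered the same range. The treated mean was 19.4 ± 3.41 CPM against 3.15 ± 0.707 in WT (SD, n = 2 each), 6.16-fold higher. The log2 fold change was 2.60 (SE 0.248, edgeR adjusted p 0.0206), beside 2.64 for DD against WT and -0.038 for DD + rDKK3 against DD. Within 20 Mb of Dkk3, 301 coding genes were tested, and Acsm3 was the 1 called. Of the 301, 37 were higher (12.3%) and 18 lower (5.98%) at an unadjusted p under 0.05, beside 8.06% and 8.47% over all coding genes. Among the genes named below, Rps13 (4.17 Mb from Dkk3), Spcs2 (12.2 Mb) and Setd1a (15.62 Mb) also lie in this window.

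Both calls rested on having 2 libraries in each of the 2 groups. Leaving out any 1 of the 4 libraries left no coding gene called by edgeR, with 284 (without DD + rDKK3 2) to 3137 (without WT 2) coding genes at an unadjusted p under 0.05. The adjusted p of Selenbp2 was then 0.115 without WT 1, 0.0772 without WT 2, 0.172 without DD + rDKK3 1 and 0.0525 without DD + rDKK3 2. For Acsm3 it was 0.17, 0.0774, 0.191 and 0.0525 in the same order. The log2 fold changes stayed between -3.93 and -3.36 for Selenbp2 and between 2.41 and 2.87 for Acsm3 over all alternatives that gave an adjusted p.

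The 5 called pseudogenes included copies of ribosomal protein genes. Rps3a3 (chromosome 13) stood at 216.2 and 188.5 CPM in WT and at 0.58 and 0.48 in DD + rDKK3, while Rps13-ps1 (chromosome 8) stood at 0.39 and 0.070 in WT and at 89.2 and 89.2 in DD + rDKK3. Processed pseudogenes share sequence with their parent genes, so reads can be split between the copies, and these values are uncertain as measures of transcription.

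The coding genes next in rank were not called, and are given by their values. On the low side, Pglyrp1, a peptidoglycan recognition protein that binds bacterial cell walls, stood at 14.3 and 23.5 CPM in WT and at 4.28 and 2.90 in DD + rDKK3, with DD at 4.83 and 5.47. Its log2 fold change was -2.40 (SE 0.310, edgeR adjusted p 0.132), the smallest adjusted p among the coding genes not called. Tm4sf4, a tetraspanin-like membrane protein, stood at 201 and 223 CPM in WT, 106 and 114 in untreated null cultures and 94.8 and 67.2 after treatment. Cd14, the co-receptor for bacterial lipopolysaccharide, stood at 121 and 137 CPM in WT, 72.8 and 85.4 in untreated null cultures and 70.8 and 57.6 after treatment. In all 3 the treated libraries lay below both WT libraries and also below both DD libraries. The log2 fold changes of Tm4sf4 and Cd14 were -1.39 (edgeR adjusted p 0.223) and -1.01 (0.321). By DESeq2, Tm4sf4 (adjusted p 2.36e-08) and Cd14 (0.000129) passed the threshold.

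Further down the low side came Slc5a1, the sodium-glucose cotransporter SGLT1, with a log2 fold change of -1.13, and Wfdc2, a secreted protease inhibitor of epithelia, with -1.04. Car8, a carbonic anhydrase-related protein, was at -1.02, Tnip3, an inhibitor of NF-kappaB signaling, at -1.15, Trim46 at -1.57 and Tstd1 at -1.60. The adjusted p of each was 0.321 in the edgeR test.

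On the high side, Muc5ac, a gel-forming mucin of gastric epithelium that also marks pancreatic precursor lesions, had the highest levels of the 10 named on this side. It stood at 68.1 and 46.6 CPM in WT, 320 and 913 in untreated null cultures and 330 and 616 after treatment. The mean was 8.25-fold that of WT, and the log2 fold change was 3.05 (SE 0.532, edgeR adjusted p 0.321, DESeq2 adjusted p 0.00723). The null libraries were all above WT, and the 2 numbered 2 stood higher than the 2 numbered 1. Myof, a membrane-repair protein of the ferlin family, stood at 18.8 and 20.6 CPM in WT and at 31.0 and 48.1 in DD + rDKK3 (log2 fold change 1.01, edgeR adjusted p 0.321). Egr1, an immediate early transcription factor, stood at 28.3 and 58.1 CPM in WT and at 96.9 and 153 in DD + rDKK3 (1.53, adjusted p 0.321).

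The rest of the high side held Boc, a Hedgehog co-receptor, at 1.41 on the log2 scale, Abcg5, a sterol transporter, at 1.36, and Inf2, a formin that builds actin filaments, at 1.28. Acvr1c, the Nodal and activin receptor ALK7, was at 1.198, Trim62 at 1.12 and Setd1a, a histone H3 lysine methyltransferase, at 1.04. Each of these 6 had an edgeR adjusted p of 0.321.

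**Figure D2:**
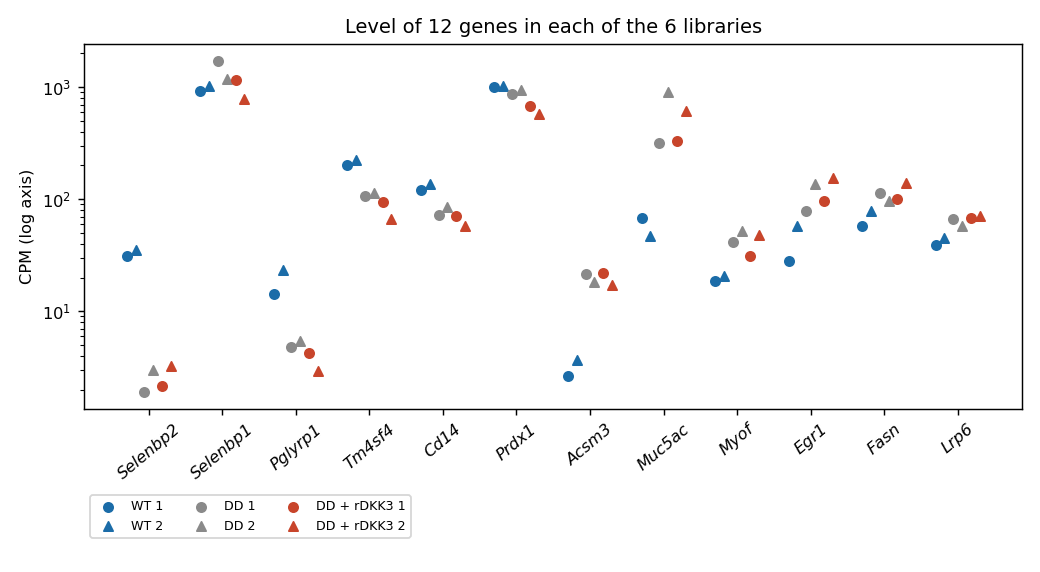
CPM on a log axis for 12 genes in each of the 6 libraries, with WT in blue, DD in grey and DD + rDKK3 in red; circles are libraries numbered 1 and triangles those numbered 2. Selenbp2 stood at 30.9 and 35.5 CPM in WT and at or below 3.23 in all 4 null libraries, while the libraries of Selenbp1 overlapped.

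The lists of genes described next were counted against the background of all coding genes. Over all of them the median log2 fold change was 0.027, with 8.06% higher and 8.47% lower at an unadjusted p under 0.05, and the called genes in any list were Selenbp2, among the glutathione and xenobiotic enzymes, and Acsm3, among the 31 genes of fatty acid oxidation and the peroxisome (1 higher and 4 lower at the unadjusted threshold). A length trend ran through the comparison and is set out first, because it bears on every list.

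Short transcripts were lower and long transcripts higher in DD + rDKK3 than in WT. Among 12686 coding genes with a known canonical transcript length, the median log2 fold change was -0.40 in the shortest 10% (252 to 1397 bases) and 0.44 in the longest 10% (7149 bases or more). In the shortest 10%, 383 genes were lower and 5 higher at an unadjusted p under 0.05, and in the longest 10%, 17 were lower and 350 higher. The Spearman correlation of fold change with length across genes, which are not independent and share the same 4 libraries, was 0.505. WT 1 stood furthest from the others, at 0.36 above the 6-library mean in the shortest 10% and 0.45 below it in the longest, while WT 2 stood at 0.089 and -0.036. Without WT 1 the correlation was 0.349 and without WT 2 it was 0.528. The same correlation was 0.412 for DD against WT. The part of RNA quality or library preparation in this trend was not tested.

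**Figure D3:**
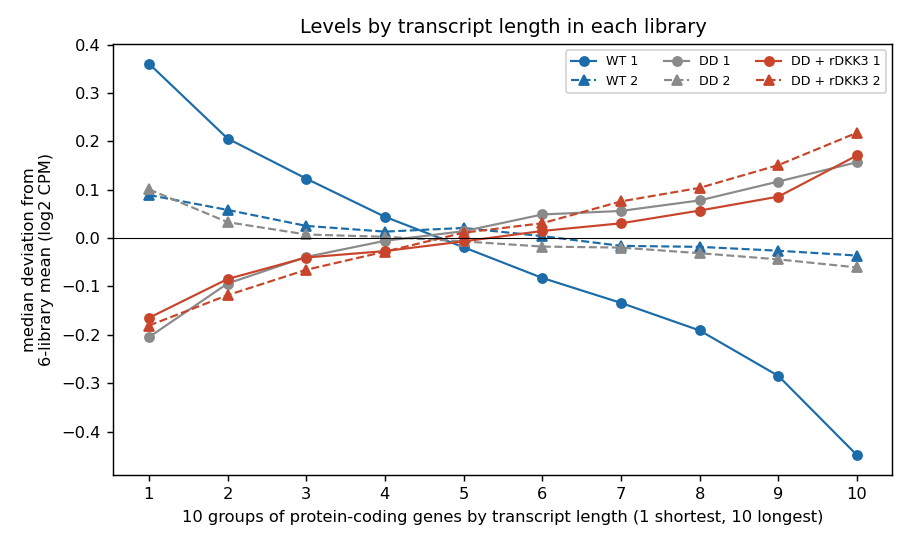
Median deviation of coding genes from their mean over the 6 libraries, in log2 CPM, for 10 equal groups of genes ordered by canonical transcript length; each line is 1 library. WT 1 runs from 0.36 in the shortest group to -0.45 in the longest, and the DD + rDKK3 libraries run from -0.17 and -0.18 to 0.17 and 0.22.

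A fit with the length trend of each library removed was added after this had been seen. It still called Selenbp2 and Acsm3, with log2 fold changes of -3.42 and 2.66, and left 571 coding genes higher and 886 lower at an unadjusted p under 0.05. Each list median of DD + rDKK3 against WT below comes with the median from this removal, from single libraries left out, or from both. Counts with the trend removed are at an unadjusted p under 0.05, beside 571 higher and 886 lower of the 12698 coding genes tested. With single libraries left out only medians are given, because the number of genes passing differed widely between those fits.

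Genes of the translation and respiration machinery lay below wild type by median, and most are short. Of 81 cytosolic ribosomal protein genes tested, 33 were lower and 0 higher at an unadjusted p under 0.05, and none was called. The libraries of 78 did not overlap on the low side, beside 27% of all coding genes. The list's median log2 fold change was -0.49, and -0.30 with the length trend removed. Then 5 were lower and 0 higher, a share near that of all coding genes (886 lower of 12698). Leaving out WT 1 gave a median of -0.32, and leaving out WT 2 gave -0.67. With 1 treated library left out the median was -0.46 or -0.51. Rps13 stood at 788 and 625 CPM in WT, 422 and 582 in untreated null cultures and 435 and 457 after treatment (log2 fold change -0.66, edgeR adjusted p 0.321). Rps13 has a called pseudogene, and its count is uncertain on that account. In WT 2 the list's summed level was 65280 CPM, below the 68380 of DD 2 and above the 52530 and 54060 of DD + rDKK3.

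The mitochondrial counterparts were similar in size. Among 77 mitochondrial ribosomal protein genes 30 were lower and 0 higher, with a median of -0.38, and among 80 nuclear genes of the respiratory chain 22 were lower and 0 higher, also with -0.38. With the length trend removed the medians were -0.23 and -0.16, with 17 of 77 and 8 of 80 genes lower, beside 886 of 12698. They were -0.24 and -0.21 when WT 1 was left out, and -0.50 and -0.52 when WT 2 was. Mrpl13 was at 73.9 and 66.6 CPM in WT and at 45.6 and 45.8 in DD + rDKK3, and Ndufb8, a complex I subunit, at 42.6 and 34.1 against 24.6 and 24.7. Of the 11 mRNAs encoded by the mitochondrial genome itself, 0 passed the unadjusted threshold in either direction.

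Secretory-path genes were listed by step. In the list of the ER translocon and COPII export, 15 of 40 were lower and 2 higher at an unadjusted p under 0.05, with a median of -0.21 (-0.24 with the length trend removed). The median was -0.090 without WT 1 and -0.36 without WT 2. Sar1b, the GTPase that starts COPII coats, stood at 187 and 148 CPM in WT and at 108 and 86.8 in DD + rDKK3, and Spcs2, a signal peptidase subunit, at 185 and 132 against 103 and 99.6. In the list of ER chaperones and folding enzymes, 0 of 30 passed in either direction, with a median of -0.049 that was 0.12 under scaling by library size alone. That median was -0.0038 without WT 1, -0.086 without WT 2 and 0.034 without DD + rDKK3 2. The difference between the 2 lists was not tested. The list of serine synthesis and ATF4 targets had 5 lower of 26, among them Psph and Psat1, enzymes of serine synthesis, at -0.50 and -0.58. Its median of -0.17 was -0.125 with the length trend removed, -0.19 without WT 1 and -0.17 without WT 2. It was -0.36 without DD + rDKK3 1 and -0.0062 without DD + rDKK3 2.

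Among the acinar digestive enzymes, the genes that define the exocrine secretory product, 5 of 30 were lower and 0 higher, with a median of -0.43. The median was -0.034 without WT 1, -0.61 without WT 2 and -0.20 with the length trend removed. It was -0.56 and -0.28 without DD + rDKK3 1 and 2. The summed level was 244700 and 186900 CPM in WT, 156900 and 138800 in untreated null cultures and 188800 and 156100 after treatment. WT 2 and DD + rDKK3 1 overlapped on that sum. Prss3, a trypsinogen, stood at 280 and 153 CPM in WT and at 122 and 77.2 in DD + rDKK3, and Cela1, an elastase, at 17250 and 8426 against 7570 and 5703. The 6 Reg lectins tested, secreted proteins that accumulate in pancreatic injury, had a median of -0.44. It was -0.155 with the length trend removed, -0.11 without WT 1 and -0.75 without WT 2. Reg3g stood at 2247 and 1787 CPM in WT and at 933 and 958 in DD + rDKK3.

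The transcription factors that maintain acinar identity lay on the other side by median. Of 12 tested, 5 were higher and 0 lower at an unadjusted p under 0.05, with a median of 0.43. The libraries of 9 did not overlap on the high side, beside 28.8% of all coding genes. The median was 0.35 with the length trend removed, when 4 were higher and 0 lower. It was 0.28 without WT 1 and 0.52 without WT 2. The summed level of the list overlapped between the groups, at 1787 and 1647 CPM in WT and 1813 and 1666 in DD + rDKK3. Creb3l2 stood at 13.5 and 14.3 CPM in WT and at 20.3 and 27.2 in DD + rDKK3, and Mecom at 16.6 and 20.2 against 24.2 and 31.4. Receptors and calcium signaling of the secretory response had 5 higher and 0 lower of 17, including Atp2b1, a calcium pump of the plasma membrane, at 0.58 and Adcy6, an adenylate cyclase, at 0.65. The median of that list was 0.33, and 0.17 with the length trend removed, when 1 was higher and 0 lower. It was 0.41 without WT 1 and 0.53 without WT 2. With DD + rDKK3 2 left out, the medians of these 2 lists were 0.358 and 0.265. The zymogen granule list had a median of 0.0555, with 12 genes higher and 9 lower by sign. Its median was 0.101 with the length trend removed, 0.0279 without WT 1 and 0.0912 without WT 2. At an unadjusted p under 0.05, 3 were higher and 1 lower of 21, and 1 and 2 with the length trend removed. Among the 3 were Itpr3 and Itpr2, calcium release channels of the endoplasmic reticulum, at 0.64 and 0.67.

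Innate defence genes of epithelia had the lowest median among the lists shown in the plot of list medians. Of 18 tested, 6 were lower and 0 higher, and 7 and 0 with the length trend removed. The median was -0.58, -0.62 with the length trend removed and -0.53 without WT 1. It was -0.28 without WT 2. Pglyrp1, Cd14 and Wfdc2, given above, led the list. The summed level of the list did not separate the groups, at 6473 and 5881 CPM in WT and 5596 and 6190 in DD + rDKK3. In the interferon response and MHC class I list, 11 of 33 were lower and 0 higher, with a median of -0.41. It was -0.387 with the length trend removed, when 9 were lower and 0 higher, -0.18 without WT 1 and -0.67 without WT 2. H2-T23, a nonclassical MHC class I molecule, stood at 103 and 70.5 CPM in WT and at 55.2 and 44.6 in DD + rDKK3, and Psmb9, an immunoproteasome subunit, at 7.96 and 5.76 against 3.70 and 2.47.

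In CPM, the neutrophil-attracting chemokines Cxcl1 and Cxcl5 differed more between the 2 WT libraries than between the group means. Cxcl5 stood at 9.14 and 105 CPM in WT and at 5.60 and 5.81 in DD + rDKK3, and Cxcl1 at 9.14 and 32.8 against 2.01 and 3.39. Il1rn, the antagonist of the interleukin-1 receptor, stood at 31.0 and 29.6 against 20.1 and 17.0.

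Antioxidant genes had medians of opposite sign in the untreated and treated null cultures. The median of 20 targets of NRF2, the transcription factor of the oxidative stress response, was -0.31 for DD + rDKK3 against WT and 0.35 for DD against WT, which share the WT libraries. The list's mean deviation from the 6-library mean, in log2 CPM, was -0.353 and 0.357 in WT and 0.628 and -0.0385 in DD. It was -0.0558 and -0.537 in DD + rDKK3, so DD 2 and DD + rDKK3 1 lay between the 2 WT libraries. Of the 20, 3 were lower and 0 higher against WT at an unadjusted p under 0.05. Prdx1, a peroxiredoxin, stood at 1014 and 1030 CPM in WT, 874 and 953 in untreated null cultures and 680 and 574 after treatment, with both treated libraries lowest (log2 fold change -0.71, edgeR adjusted p 0.321, DESeq2 adjusted p 0.00321). The list median was 0.19 without WT 2 and -0.59 without WT 1, so its direction depended on which WT library was kept. It was -0.276 with the length trend removed, -0.56 without DD + rDKK3 1 and -0.060 without DD + rDKK3 2. Among the 41 glutathione and xenobiotic enzymes 6 were lower and 0 higher, Gstm5 and Gstt1 among them, at -0.61 and -0.71. That median was -0.31, -0.216 with the length trend removed, -0.51 without WT 1 and 0.076 without WT 2. It was -0.54 without DD + rDKK3 1 and -0.19 without DD + rDKK3 2.

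Lipid synthesis genes lay above wild type by median. Of 30 genes of cholesterol and fatty acid synthesis, 7 were higher and 0 lower at an unadjusted p under 0.05, with a median of 0.26 (0.21 with the length trend removed, 0.36 without WT 1, 0.23 without WT 2). It was 0.44 when DD + rDKK3 1 was left out, and 0.10 when DD + rDKK3 2 was. With the length trend removed, 3 genes were higher and 0 lower. Fasn, the fatty acid synthase, stood at 58.0 and 77.8 CPM in WT, 113 and 96.5 in untreated null cultures and 101 and 139 after treatment (DESeq2 adjusted p 0.0355). Acaca, which makes the malonyl-CoA that Fasn uses, stood at 8.65 and 11.0 against 16.3 and 18.8 in DD + rDKK3.

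Integrins and basement membrane genes also lay above wild type by median, and their transcripts are long. Of 33 integrins, laminins and other basement membrane genes 11 were higher and 1 lower, with a median of 0.34 that became 0.050 with the length trend removed, when 3 were higher and 2 lower. The same median was 0.35 without WT 1, 0.51 without WT 2 and 0.24 without DD + rDKK3 2. Itgb4, the hemidesmosome integrin, stood at 84.3 and 88.1 CPM in WT and at 142 and 135 in DD + rDKK3. The actin cytoskeleton list gave no clear direction, with a median of 0.021 and 20 genes higher and 17 lower by sign. Its median was 0.106 with the length trend removed, 0.165 without WT 1 and -0.112 without WT 2. At an unadjusted p under 0.05, 4 of 37 were higher and 0 lower. Among the 4, Tln1, which links integrins to actin, stood at 46.8 and 62.1 CPM in WT and at 85.9 and 93.9 in DD + rDKK3.

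**Figure D4:**
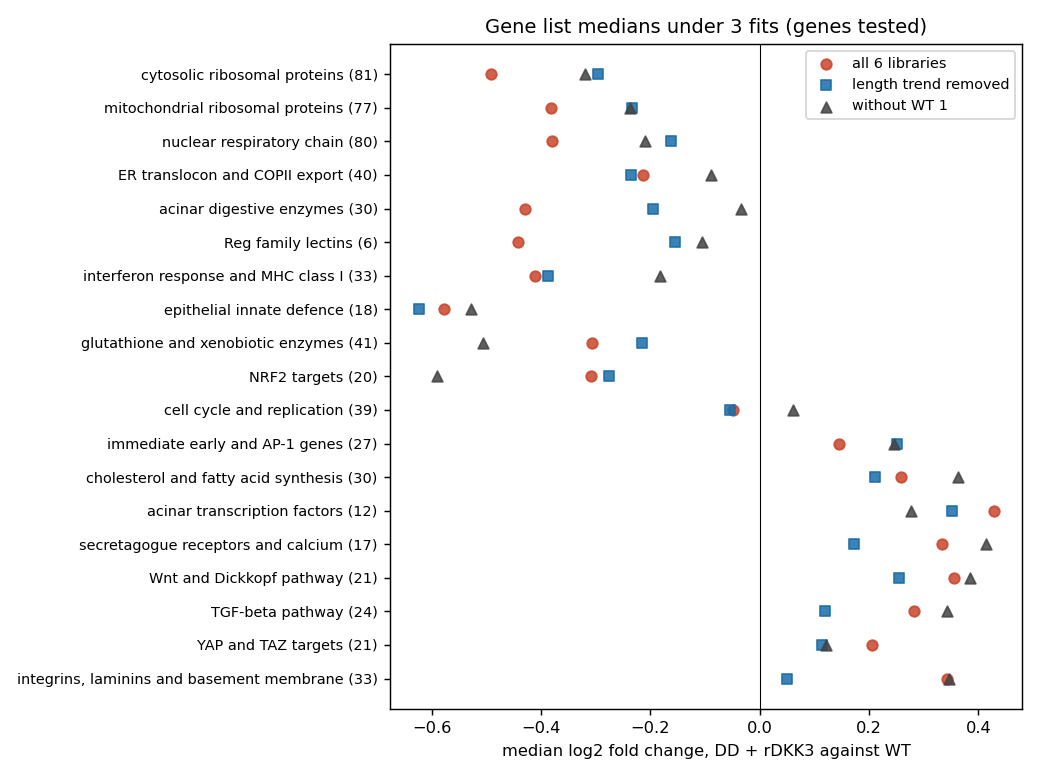
Median log2 fold change of DD + rDKK3 against WT for 19 gene lists, with the number of genes tested in brackets, in the fit to all 6 libraries (circles), with the length trend removed (squares) and without WT 1 (triangles). The integrin and laminin median goes from 0.34 to 0.050 with the length trend removed, and that of the acinar transcription factors from 0.43 to 0.35.

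In the Wnt and Dickkopf list 4 of 21 genes were higher and 1 lower, with a median of 0.36 (0.25 with the length trend removed, when 0 were higher and 1 lower). The median was 0.39 without WT 1, 0.44 without WT 2 and 0.20 without DD + rDKK3 2. Lrp6 stood at 38.9 and 45.5 CPM in WT, 66.8 and 57.2 in untreated null cultures and 68.0 and 70.4 after treatment (log2 fold change 0.71, edgeR adjusted p 0.321, DESeq2 adjusted p 0.0227). Lrp5 was at 0.35 on the log2 scale, and Lgr4, a receptor for R-spondins, at 0.40. In the TGF-beta list 4 of 24 were higher and 0 lower, with Ski, a repressor of SMAD proteins, at 29.28 and 29.99 CPM against 44.7 and 52.7. Its median of 0.28 was 0.119 with the length trend removed, 0.34 without WT 1 and 0.15 without WT 2. It was 0.43 without DD + rDKK3 1 and 0.090 without DD + rDKK3 2. The YAP and TAZ list had 4 higher of 21 and 1 lower, with Amotl2 and Amotl1, angiomotins that bind YAP, at 0.78 and 0.59. The median of that list, 0.21, was 0.113 with the length trend removed, 0.12 without WT 1 and 0.42 without WT 2. The Notch list had 2 higher of 17 and 0 lower, with a median of 0.234. It was 0.191 with the length trend removed, 0.0802 without WT 1 and 0.4 without WT 2. The 20 p53 targets had 0 in either direction.

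Some of the 13 genes that the study named, Fos among them, were picked out by it from these libraries, so their direction is not independent evidence. Others, such as Krt19 and Sox9, served it as markers of cell identity in qRT-PCR. None of the 13 was called by edgeR, and 5 were higher and 2 lower at an unadjusted p under 0.05. Fos, an AP-1 subunit, stood at 8.06 and 37.7 CPM in WT, 78.8 and 118 in untreated null cultures and 55.4 and 98.0 after treatment (log2 fold change 1.73, SE 0.607, edgeR adjusted p 0.321). Both treated libraries were above both WT libraries, which themselves lay far apart. Dusp1, a phosphatase that turns off MAP kinases, was at 0.69 and Jun at 0.54. Junb, another AP-1 subunit, stood at 75.5 and 123 CPM in WT and at 125 and 162 in DD + rDKK3 (0.53, edgeR adjusted p 0.364). Plaur, the urokinase receptor, stood at 22.6 and 25.9 CPM in WT, 42.8 and 47.6 in untreated null cultures and 25.3 and 27.0 after treatment, and the treated and wild-type libraries overlapped (0.11, adjusted p 0.728). Areg, an EGF receptor ligand, stood at 2.36 and 3.58 CPM in WT, 7.34 and 11.3 in untreated null cultures and 4.54 and 4.95 after treatment.

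Amy2b, an amylase locus that the deposited annotation lists as an unprocessed pseudogene, stood at 404 and 230 CPM in WT, 38.4 and 56.1 in untreated null cultures and 55.3 and 71.4 after treatment. All 4 null libraries were below WT, with a log2 fold change of -2.32 (SE 0.317, edgeR adjusted p 0.171, DESeq2 adjusted p 2.5e-11). The amylase genes resemble each other closely, which leaves their single values uncertain, and Amy1 overlapped between the groups at 178 and 114 CPM in WT and 160 and 244 in DD + rDKK3. Pnliprp1, a lipase-related protein of acinar cells, also overlapped, at 14940 and 11570 CPM in WT and 12320 and 8397 in DD + rDKK3 (log2 fold change -0.36, edgeR adjusted p 0.481).

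Immediate early and AP-1 genes had 6 higher of 27 and 0 lower, and 8 and 0 with the length trend removed. The median was 0.15, and 0.25 with the length trend removed. It was 0.25 without WT 1, 0.13 without WT 2 and 0.077 without DD + rDKK3 2. The MAPK feedback and ETS target list had 1 higher and 1 lower of 23, with a median of 0.11 beside 0.42 for DD against WT. The former was 0.094 with the length trend removed, 0.23 without WT 1, 0.061 without WT 2 and 0.037 without DD + rDKK3 2. Cell cycle genes had 2 lower of 39 and 0 higher, with a median of -0.049 that was 0.12 under scaling by library size alone, 0.061 without WT 1 and -0.25 without WT 2. Ccnd1, the D-type cyclin, stood at 31.1 and 27.7 CPM in WT, 32.7 and 29.5 in untreated null cultures and 19.1 and 18.7 after treatment, where both treated libraries were lowest.

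Duct markers gave no single direction. Of the 10, 2 were higher and 3 lower at an unadjusted p under 0.05, with a median of -0.28 (-0.20 without WT 1, -0.26 without WT 2). Krt7, a duct keratin, stood at 88.8 and 81.6 CPM in WT, 75.3 and 88.8 in untreated null cultures and 56.7 and 59.4 after treatment, and Car2, the duct carbonic anhydrase, at 6.88 and 8.29 CPM in WT against 3.86 and 3.07. Krt19, the keratin most used as a duct marker, stood at 910 and 519 CPM in WT, 695 and 800 in untreated null cultures and 578 and 593 after treatment. The treated libraries lay between the 2 WT libraries, with a log2 fold change of -0.29 (SE 0.268, edgeR adjusted p 0.581) that was 0.19 without WT 1 and -0.64 without WT 2. Sox9, a duct and progenitor transcription factor, stood at 12.8 and 13.6 against 16.6 and 20.6. In bulk RNA, fewer cells of a type and less RNA per cell cannot be told apart.

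Fibroblast markers followed the culture number more than the group. The summed level of the list was 315 and 225 CPM in WT, 211 and 1555 in untreated null cultures and 354 and 1569 after treatment. The 2 null cultures numbered 2 held the high values and the treated culture numbered 1 stood near WT 1. Of 21 markers 6 were higher and 0 lower at an unadjusted p under 0.05, with a median log2 fold change of 1.83. That median was 2.61 without WT 1, 1.73 without WT 2, 2.49 without DD + rDKK3 1 and 0.58 without DD + rDKK3 2. Col5a1 stood at 6.09 and 4.57 CPM in WT, 7.43 and 68.3 in untreated null cultures and 15.0 and 75.5 after treatment, and Mmp2, a gelatinase of stromal cells, at 4.42 and 1.19 in WT and 6.81 and 34.1 in DD + rDKK3. Macrophage markers summed to 193 and 73.8 CPM in WT and 104 and 248 in DD + rDKK3, and overlapped. The part of fibroblast RNA in the matrix gene values was not tested.

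**Figure D5:**
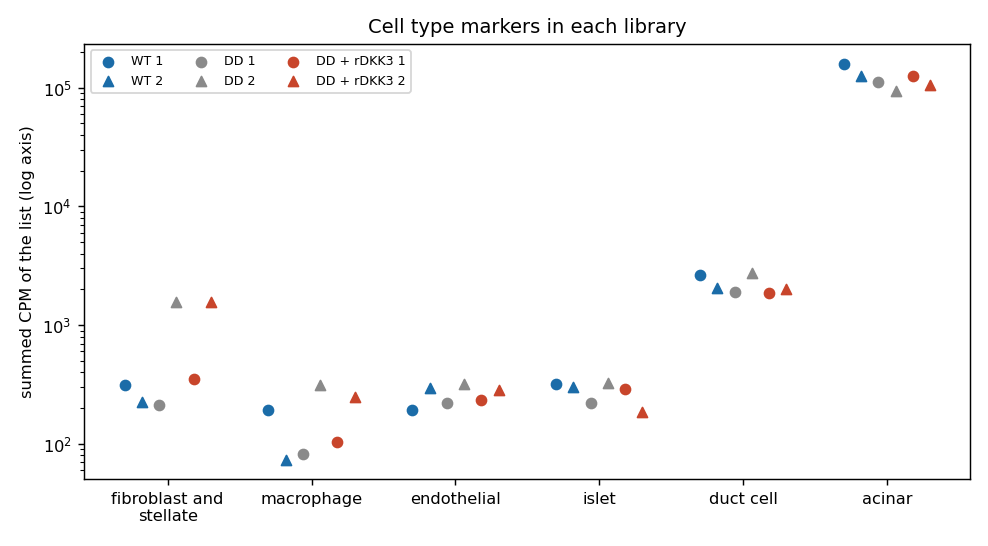
Summed CPM of 6 cell type marker lists on a log axis in each library, with WT in blue, DD in grey and DD + rDKK3 in red; circles are libraries numbered 1 and triangles those numbered 2. Fibroblast markers reached 1555 and 1569 CPM in DD 2 and DD + rDKK3 2 and were at or below 354 elsewhere, while acinar markers stayed between 93700 and 158400.

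DESeq2 gave an adjusted p to 4375 coding genes and called 26 higher (0.594%) and 42 lower (0.96%). It gave no adjusted p to Selenbp2 and Acsm3, so its threshold was not applied to them. Its log2 fold changes for the pair were -3.63 and 2.6. Besides those quoted above, the genes it called included Bnip3, a mitophagy receptor induced by hypoxia, at 401 and 258 CPM in WT and 186 and 130 in DD + rDKK3, Amotl2 (adjusted p 0.0256), Itgb4 (0.026) and Tln1 (0.026).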

How the data were processed

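Bulk RNA-seq of 6 acinar cultures was analysed. The deposited counts are raw whole numbers of fragments per gene, which the authors made by aligning 50-base paired-end, strand-specific reads with STAR 2.7.9a to GRCm39 with GENCODE M32 and summing exon counts per gene, and which they tested with DESeq2 1.38.0. Of 57045 features, 92 spike-in rows held 0 counts and were left out. Columns were matched to samples by the library names in the labels.

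From the counts, genes were kept by filterByExpr (minimum count 10, minimum total 15), scaled by TMM and fitted with edgeR 4.0.16 (quasi-likelihood, two-sided) over all 6 libraries in 3 groups, with 3 residual degrees of freedom. CPM used the TMM-scaled totals. DESeq2 1.42.0 and limma 3.58.1 (voom) under R 4.3.3 were alternatives. Transcript length and sequence came from GENCODE M39 on GRCm39, and 99.91% of coding genes tested had a length. The length trend was a lowess curve (span 0.3) per library, entered as an offset. The procedure was tested on simulated data.

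Genes named are those called, up to 10 a direction filled with the coding genes of smallest p (average log2 CPM of at least 1, absolute log2 fold change of at least 1, groups not overlapping), from the lists described, members among the 3 of smallest p in the direction of the list's median, and the genes the study named. The genes, lists and comparison were chosen with earlier results of these data known. The results of 2 list members are not reported here. Other genes were chosen after their values were seen: Selenbp1 and the 2 pseudogenes described. Library totals of 12018473 to 19750401 set the counting precision, and reads carried no molecular identifiers.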

Additional observations from a re-analysis of the deposited data

How the results depend on the processing

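The 2 coding calls (1 higher, 1 lower) and 7 calls over all genes were the same in number with DESeq2 size factors, with the length trend removed (6 over all genes) and after thinning to equal depth. Without the filter on low counts there were 738 coding calls (558 higher, 180 lower) and 788 in all, and DESeq2 gave 68 (26 and 42) and 74 in all. limma-voom gave 1 coding call (0 higher, 935 at an unadjusted p) and 3 in all, and fitting coding genes only gave 1 (0 higher, 985 at an unadjusted p). The fit to only the 4 libraries gave 3 coding calls, 2 of them lower. For each of these the cause of the difference was not tested. Leaving out 1 library gave 0 to 3 coding calls (0 to 1 higher, 0 to 2 lower) and 2 to 9 calls over all genes, with 284 to 3137 coding genes at an unadjusted p. Replicate numbers did not pair WT with DD + rDKK3: the deviations of same-numbered libraries from their group means correlated at -0.277. A replicate block over all groups gave 1 coding call (0 higher, 930 at an unadjusted p) and 5 in all, and a replicate block within the Dkk3-null libraries, whose deviations correlated at 0.698, gave 68 (55 higher, 13 lower) and 77 in all. With the WT numbers crossed, a pairing added after the data were seen, the replicate block gave 535 coding calls (353 higher, 182 lower) and 566 in all. Selenbp1, at -0.0054, changed sign under scaling by library size alone (0.149), without the filter (0.0399) and with the length trend removed (0.158), and ran from -0.305 to 0.244 when 1 library was left out. Krt19, at -0.288, changed sign without WT 1 and ran from -0.637 to 0.19 when 1 library was left out. No other named gene changed sign under the alternatives run. Depth limits genes near 10 counts, and 2 libraries a group limit every call.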
